A study of Sus scrofa with 220 samples.

Results

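The trophectoderm (TE) of the early blastocyst (EB) was compared with the hypoblast (HYPO) of the late blastocyst (LB) of the pig, the 2 epithelia that lie outside the embryo proper at these stages. Members were chosen by the cell type label alone. They were 28 cells labelled EB TE and 36 cells labelled LB HYPO, 64 of the 220 single-cell transcriptomes of the series. The authors told lineages apart by clustering these same transcriptomes and by known marker genes. Levels, shares of cells and p-values of such markers are therefore partly set by the labelling and are no independent check on it. The series followed pig embryos from morula to spherical blastocyst by Smart-seq2, which copies full-length messenger RNA from 1 cell. Embryos were flushed from inseminated crossbred sows of Large White and Landrace, and the labels give no treatment and no genetic change for any of them. TE cells came from 10 EB embryos and HYPO cells from 5 LB embryos, as read from the letters of the cell identifiers, and no embryo gave both. EB embryos were dissociated after removal of the zona pellucida, whereas LB embryos first went through immunosurgery, in which antibody and complement lyse the outer TE layer. Stage, lineage and way of isolation changed together between the groups and cannot be told apart here. By the authors' sexing of the cells, females made up more of LB HYPO than of TE, and sex was not fitted.

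TE is the first epithelium of the mammalian embryo. It pumps fluid into the blastocyst cavity, later forms the placenta, and is marked by the transcription factors GATA2 and GATA3 and by the keratins KRT8 and KRT18. HYPO, or primitive endoderm, forms on the cavity side of the inner cell mass (ICM), lays down a basement membrane, and gives rise to the yolk sac. Its best known factors are GATA6 and GATA4, together with the receptor PDGFRA and the matrix protein fibronectin (FN1).

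Counts were added over the cells of each embryo and group, which gave 10 TE and 5 LB HYPO sums of 1 to 16 cells. The cells held 1165967 to 3771591 counts in TE and 1049240 to 3750153 in LB HYPO, with a median of 4939 and 5604 genes detected. Levels below are log2(CPM + 1), where CPM is the count scaled to a common library size with TMM, and compare samples within a gene, not genes with each other. Values of LB HYPO are given in the order of embryos AL, AM, AN, AO and AP, and those of TE as the lowest, the median and the highest of the 10 embryos. A gene was called at an adjusted p under 0.05 in edgeR's quasi-likelihood test, with Benjamini-Hochberg adjustment over all genes tested. A log2 fold change is TE minus LB HYPO and is followed by its standard error. Nothing in the labels states that embryos of a group had different mothers, and the p-values measure the spread between these embryos.

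One library went against its label. The only cell labelled TE from embryo E6-ER had no count for KRT8, GATA2, GATA3 or DAB2, whereas the other 9 TE embryos lay at 13.54 or above for KRT8 and at 6.57 or above for GATA2. The same cell had levels of 7.41 for PDGFRA, 6.54 for the endoderm factor HNF4A and 7.97 for the interleukin 6 receptor IL6R. It also had 9.35 for the pluripotency factor KLF4, and no count for any of the 22 listed matrix genes. Across 6509 genes, which are not independent replicates, its log2 levels correlated with the group medians at r = 0.538 for ICM, 0.487 for TE and 0.403 for LB HYPO. It was kept under its label, since samples were grouped by labels only, and results that rest on it are given with and without it. Of the 28 cells labelled TE, 25 had all of GATA2, GATA3, KRT8, KRT18 and DAB2 above 1 TPM, a unit of transcripts scaled by gene length and depth, and the cell of E6-ER was the 1 cell with none. In LB HYPO no cell had all 5 and none lacked all 5, and FN1 passed 1 TPM in 36 of 36 cells.

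Of 14721 genes tested, 416 differed between TE and LB HYPO, 2.83% of the genes. The genes tested include 1378 with no count in either group. Higher levels in TE were called for 97 genes (0.659%) and in LB HYPO for 319 genes (2.17%). TE was led by the prostaglandin synthase PTGS2, the zinc transporter SLC30A2, the glycerol phosphate dehydrogenase relative GPD1L and TFAP2C. LB HYPO was led by chaperones (HSPH1, DNAJB1), matrix genes (VCAN, NID1), the lipoprotein assembly factor MTTP and the cadherin CDH2. The 2 groups did not overlap in any sum for 27 of the 97 and 156 of the 319 called genes, whereas over all genes the TE sums lay above for 0.319% and the LB HYPO sums above for 2.19%. No count in TE was found for 123 of the genes called higher in LB HYPO, and no count in LB HYPO for 14 of those called higher in TE. Without embryo E6-ER the calls were 163 higher in TE (1.11%) and 309 higher in LB HYPO (2.1%), and 374 of the 416 genes were called again. DESeq2 called 439 genes higher in TE and 397 higher in LB HYPO, and a stricter filter on low counts (filterByExpr) 100 and 130, so the balance of the directions rests on these choices. The number after SLX in the sample title was read as a sequencing pool, which no label states. Calls were 238 with the first 4 pools (12 TE and 23 LB HYPO cells) and 77 with the last 4 (16 and 13 cells). Calls were 276, 222, 262 and 193 without LB HYPO embryos AL, AM, AN and AO, and 253 and 268 without TE embryos AB and AC.

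**Figure D1:**
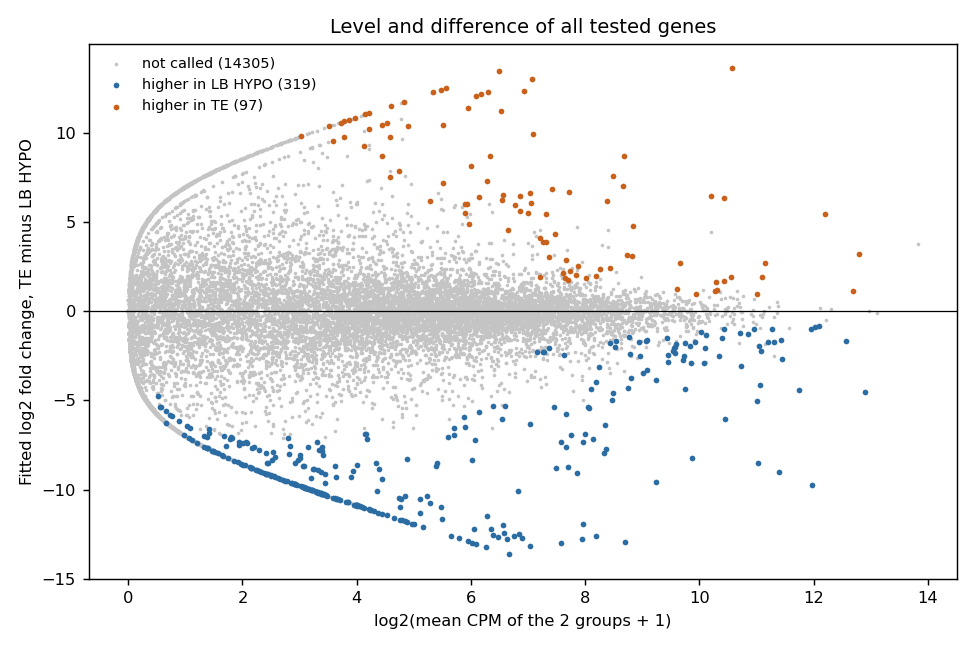
Fitted log2 fold change (TE minus LB HYPO) against log2(mean CPM of the groups + 1) for all 14721 genes tested, 1 point a gene. The 97 genes called higher in TE are orange, the 319 called higher in LB HYPO are blue and the rest grey. The curved edges hold genes with no count in one group, whose fitted size is not a bound.

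Of 18 listed TE transcription factors tested, 3 (GATA2, GATA3 and TFAP2C) were called higher in TE, 1 higher in LB HYPO and 14 were not called, against 0.659% and 2.17% of all genes in the respective directions. Their summed CPM overlapped, at 671 to 3158 in TE and 407 to 1901 in LB HYPO. GATA2 stood at 0, 7.78 and 9.33 in TE and at 3.21, 1.45, 0, 2.07 and 0.37 in LB HYPO. Its difference was 6.62 ± 1.41 (adjusted p = 0.0123), and all TE embryos but E6-ER lay above every LB HYPO embryo. GATA3, its partner in TE fate, measured 0, 7.56 and 8.82 in TE against 4.22, 2.3, 0, 1.53 and 0. The call on GATA3 was weak with every embryo (5.63 ± 1.45, adjusted p = 0.0403, held in 15 of 29 alternative settings) and had an adjusted p of 0.00439 without E6-ER. TFAP2C, an AP-2 factor needed for TE, was the gene of this list with the smallest p. It reached 8.65, 9.76 and 10.57 in TE and 6.71, 4.22, 2.53, 4.93 and 2.35 in LB HYPO, with no overlap and a difference of 4.79 ± 0.74 (adjusted p = 0.000648). For its relative TFAP2A the levels were 6.35, 7.83 and 9.56 in TE and 0, 4.33, 0.93, 6.87 and 0 in LB HYPO, and the difference of 3.22 ± 1.21 was not called (adjusted p = 0.114). ID2, an inhibitor of basic helix-loop-helix factors that is listed with TE in the mouse, went the other way, with 0, 1.08 and 3.59 in TE, 10.71, 7.66, 6.75, 6.98 and 8.48 in LB HYPO and a difference of -7.32 ± 1.26 (adjusted p = 0.00198). The median log2 fold change of the 18 was 2.06, against 0 over all genes tested. CDX2 passed 1 TPM in 1 of 28 TE cells and 0 of 36 LB HYPO cells, and that 0 allows a share of up to 8.33%. TEAD1 (0.63 ± 1.41) and ANXA6 (-0.48 ± 0.91) had differences smaller than their standard errors and were not called (adjusted p = 0.983 and 0.95).

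The keratins KRT8 and KRT18, which pair into the filaments of simple epithelia, were higher in 9 of the 10 TE embryos than in any LB HYPO embryo, where both were detected in every embryo. KRT18 measured 0.29, 13.34 and 13.87 in TE and 6.9, 8.24, 8.01, 7.99 and 6.86 in LB HYPO, and was called higher in TE (5.46 ± 1.06, adjusted p = 0.00605). KRT8 measured 0, 14.87 and 15.31 against 10.28, 11.16, 11.18, 11.02 and 10.98, a difference of 3.76 ± 1.03 that missed the threshold with every embryo (adjusted p = 0.0521). Without E6-ER it was 4 with an adjusted p of 3.97e-09, and that single cell decided the call. KRT8 was above 1 TPM in 27 of 28 TE cells and in 36 of 36 LB HYPO cells. The summed CPM of the 4 keratins tested ranged from 15611 to 55521 in the 9 other TE embryos and from 1373 to 2613 in LB HYPO, and KRT18 was the 1 keratin called. The endocytic adaptor DAB2, a marker of both epithelia, had levels of 0, 11.18 and 11.84 in TE and 0, 7.52, 4.51, 7.57 and 6.95 in LB HYPO. Its difference of 4.44 ± 1.25 was not called (adjusted p = 0.0551), and without E6-ER it was called (adjusted p = 0.00256). DAB2 passed 1 TPM in 27 of 28 TE cells (96.4%, 81.7 to 99.9 by exact Clopper-Pearson 95% interval, which covers counting error only, as cells of 1 embryo share their source) and 32 of 36 LB HYPO cells (88.9%, 73.9 to 96.9).

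**Figure D2:**
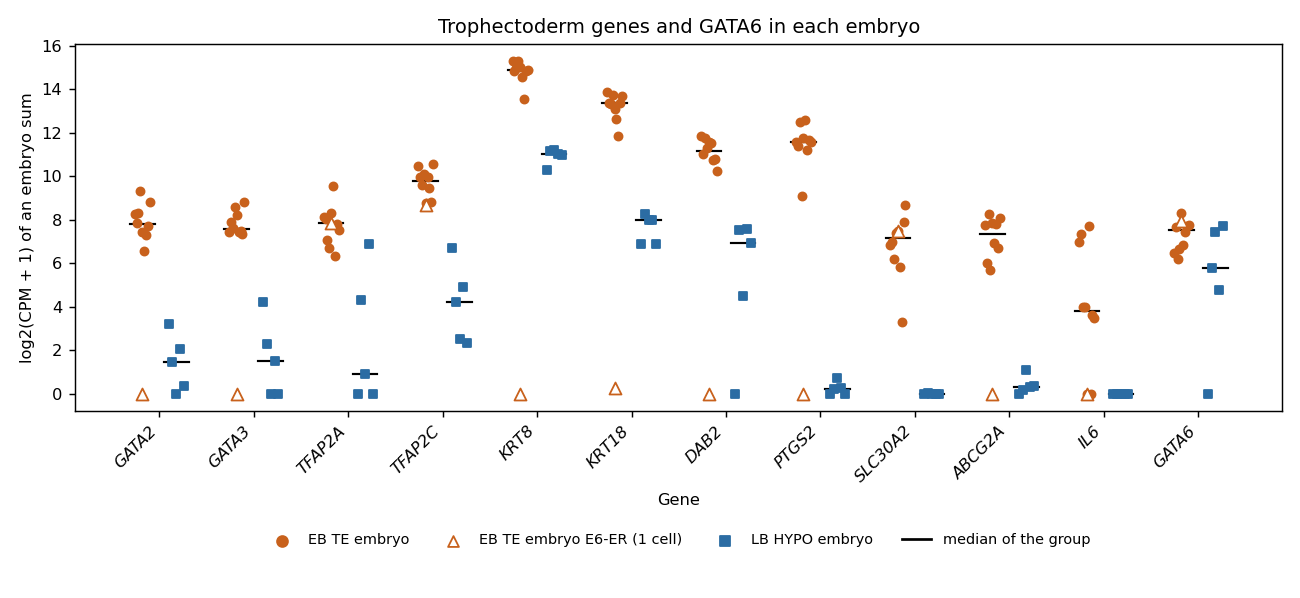
Level of 12 genes, as log2(CPM + 1) of each embryo sum, in the 10 TE embryos (orange; the open triangle is the single cell of E6-ER) and the 5 LB HYPO embryos (blue); black lines are medians. The 9 other TE embryos sit above every LB HYPO embryo for GATA2, GATA3, KRT8, KRT18 and PTGS2, whereas GATA6 overlaps.

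Beyond these markers, single genes of unlike function were called higher in TE. PTGS2, the inducible cyclooxygenase and the 1 call among 9 genes of trophoblast products and steroid or prostaglandin synthesis, stood at 0, 11.57 and 12.59 in TE and 0, 0.22, 0.75, 0.26 and 0 in LB HYPO (13.63 ± 1.66, adjusted p = 2.81e-05). It was above 1 TPM in 27 of 28 TE cells and 1 of 36 LB HYPO cells. SLC30A2, which moves zinc out of the cytosol, measured 3.31, 7.18 and 8.69 in TE and 0, 0.060, 0, 0 and 0 in LB HYPO, where 1 count was found in all, and the ratio was 9404-fold (95% counting interval 1688 to 371494). GPD1L did not overlap, with 12.15, 13.66 and 14.36 in TE, 10.23, 10.38, 9.16, 10.97 and 10.87 in LB HYPO and a difference of 3.2 ± 0.34 (adjusted p = 3.96e-06). The sugar phosphate enzyme PGM2 followed with 8.51, 11.99 and 12.75 against 8.74, 8.91, 9.3, 9.56 and 9.59 (2.69 ± 0.45, adjusted p = 0.00141). ACSL6, which activates long-chain fatty acids, ran at 7.54, 9.55 and 10.15 in TE and 0, 0.060, 0.30, 4.16 and 0 in LB HYPO. Embryo AO held the highest LB HYPO level, below every TE embryo, and the difference of ACSL6 was 7.61 ± 1.35 (adjusted p = 0.0027). ACSL6 also passed 1 TPM in 24 of 24 ICM cells and 0 of 25 LB epiblast cells. ACSL3, an enzyme of the same family, was higher in LB HYPO (-6.88 ± 1.66, adjusted p = 0.0296). The TE counts of ACSL3 all came from embryo AC, and without AC the fitted value, which then depends on the prior count, was -15. ACSL6 and ACSL3 were the calls among 21 genes of fatty acid metabolism. Of 219 solute carriers, collected by symbol after the values had been seen, 5 were called higher in TE and 10 higher in LB HYPO. The shares over all genes were 0.659% and 2.17%, and 28 of the 219 had no count in either group. The transporter ABCG2A was called with 8.72 ± 1.5 (adjusted p = 0.00198), and no LB HYPO embryo passed 1.1. The lipase LIPH, the protease MEP1B and the neurotrophin receptor NTRK3 had no count in any LB HYPO cell, so that they were at least 1528-fold, at least 1954-fold and at least 1483-fold higher in TE against a floor of 3 counts over the group. In the inner lineages, LIPH passed 1 TPM in 22 of 24 ICM cells and 0 of 25 LB epiblast cells, MEP1B in 2 and 0, and NTRK3 in 0 and 1.

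Some proton pumping and lysosomal genes were called, against 0.659% of all genes called higher in TE and 2.17% higher in LB HYPO. ATP6V0D2, a subunit of the vacuolar proton pump, measured 0, 9.57 and 9.86 in TE and 0, 2.45, 0.30, 5.33 and 0 in LB HYPO (6.19 ± 1.53, adjusted p = 0.0326, held in 21 of 29 alternative settings). It was the 1 call among 11 listed ion pumps and water channels. Of the 15 genes of the vacuolar pump, collected by symbol after the values had been seen, ATP6V0A4 was also called higher in TE and the other 13 were not called. The cholesterol carrier NPC2 was higher in TE (3.18 ± 0.76, adjusted p = 0.0291), and the cathepsin CTSB and the lipoprotein receptor SCARB1 were higher in LB HYPO (-5.35 ± 1.34 and -5.41 ± 1.42, adjusted p = 0.0365 and 0.0423), the other 18 of 21 endocytic and lysosomal genes not being called. The peptide transporter SLC15A1 was higher in TE (6.87 ± 1.78, adjusted p = 0.0417, held in 13 of 29 alternative settings). Among amino acid transporters, SLC3A1 and SLC3A2, the heavy chains of heteromeric carriers, were higher in LB HYPO, with log2 fold changes of -4.59 ± 0.97 and -2.44 ± 0.47 (adjusted p = 0.0121 and 0.00525). SLC7A9, the light chain partner of SLC3A1, had 0, 0.28 and 7 in TE and 8.43, 9.41, 8.23, 9.33 and 8.77 in LB HYPO and missed the threshold (adjusted p = 0.0581, 0.00202 without E6-ER).

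The GATA6 and GATA4 pair, which marks HYPO, did not separate the groups. GATA6 measured 6.22, 7.54 and 8.31 in TE and 0, 5.79, 7.42, 4.77 and 7.73 in LB HYPO, a difference of 0.91 ± 0.83 (adjusted p = 0.678). It was above 1 TPM in 25 of 28 TE cells and 25 of 36 LB HYPO cells, and 23 of the 28 TE cells had GATA3 and GATA6 together, against 2 of 36 LB HYPO cells. GATA4 stood at 0, 1.36 and 4.12 in TE and 3.29, 4.22, 3.09, 4.08 and 3.49 in LB HYPO and was not called (-1.84 ± 1.52, adjusted p = 0.618). It passed 1 TPM in 6 of 28 TE cells (21.4%, 8.3 to 41) and 20 of 36 LB HYPO cells (55.6%, 38.1 to 72.1). FOXA2, a forkhead factor of endoderm, was called higher in LB HYPO at the edge of the threshold (adjusted p = 0.0491) and held in 5 of 28 alternative settings. Of 12 HYPO and endoderm factors tested, 2 were called higher in LB HYPO (1 without E6-ER) and none in TE. Of the 12, 9 had a log2 fold change below 0, and the median was -2.2. HNF4A, at 0, 0 and 6.54 in TE and 8.09, 6.19, 4.54, 5.17 and 5.66 in LB HYPO, was not called (adjusted p = 0.438).

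PDGFRA, the receptor by which HYPO is often sorted, was found in 2 TE embryos, with 0, 0 and 7.41 in TE and 9.79, 7.65, 5.42, 7.12 and 7.91 in LB HYPO. Its difference of -4.08 ± 1.74 was not called (adjusted p = 0.167) but was without E6-ER, which held the highest TE level (-8.2, adjusted p = 0.00451). Above 1 TPM it was seen in 2 of 28 TE cells and 29 of 36 LB HYPO cells. IL6R measured 0.51, 5.56 and 7.97 in TE and 7.99, 7.42, 8.55, 8.63 and 8.17 in LB HYPO (-2.09 ± 0.84, adjusted p = 0.143). All LB HYPO cells but only 15 of 28 TE cells had IL6R above 1 TPM. Its ligand IL6 went the other way, found in 20 of 28 TE cells and 0 of 36 LB HYPO cells. With no count in LB HYPO it was at least 1375-fold higher in TE (adjusted p = 0.0388, held in 16 of 29 alternative settings), the 1 call among 15 IL6, LIF and JAK-STAT genes.

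In the basement membrane and matrix, 11 of 22 genes tested were called higher in LB HYPO and none in TE, against 2.17% of all genes. The median log2 fold change was -5.31 for the list, -4.64 with genes absent from TE set at their bound, and 0 over all genes. Over the wider family of 27 laminin and collagen genes, collected by symbol after the values had been seen, 4 (COL4A2, LAMA1, LAMB1 and LAMC1) were called higher in LB HYPO. Their median was 0, but 10 of the 27 had no count in either group and stand at 0 for that reason. FN1 stood at 0, 0.96 and 6.14 in TE and 12.54, 12.58, 13.39, 12.02 and 13.67 in LB HYPO (-9.77 ± 1.25, adjusted p = 5.65e-05). The proteoglycan versican, VCAN, reached 0, 0 and 0.51 and 9.99, 9.49, 8.73, 9 and 7.89 (-12.63 ± 0.84, adjusted p = 6.44e-09). Every LB HYPO embryo lay above every TE embryo for both. The nidogens, which tie laminin to collagen IV, had 1 (NID1) and 2 (NID2) counts over the whole of TE, and the ratios were 10666-fold (95% counting interval 1914 to 421308) for NID1 and 4609-fold (95% counting interval 1276 to 38067) for NID2, higher in LB HYPO. Fibulin 1 (FBLN1) had a ratio of 7267-fold (95% counting interval 1304 to 287090), and the collagen IV chain COL4A2 had no count in TE and exceeded it at least 1788-fold in LB HYPO. LAMA1, LAMB1, LAMC1, HSPG2 and SPARC, which are laminin chains, perlecan and an osteonectin, completed the 11. Summed over the 22 genes, CPM ranged from 0 to 430 in TE and from 7082 to 17195 in LB HYPO. Of the receptors that bind these proteins, ITGB1 (-2.51 ± 0.45, adjusted p = 0.00297) and ITGA5 (-3.87 ± 0.84, adjusted p = 0.0146), the 2 chains of the fibronectin receptor, were the calls among 12 integrins. The hyaluronan-binding protease HABP2 had a ratio of 10298-fold (95% counting interval 1848 to 406796).

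Cell adhesion genes gave some large differences. Over all genes 0.659% were called higher in TE and 2.17% higher in LB HYPO. N-cadherin (CDH2) had 0, 0 and 0.71 in TE and 8.61, 9.17, 8.44, 8.83 and 9.42 in LB HYPO, a ratio of 10227-fold (95% counting interval 3499 to 49596) (adjusted p = 7.66e-09). Above 1 TPM it was found in 0 of 28 TE cells and 36 of 36 LB HYPO cells, and the 0 allows a TE share of up to 10.7%. The connexin GJB1 gave a ratio of 4847-fold (95% counting interval 1341 to 40025). Those were the 2 calls among 17 adherens junction, desmosome and gap junction genes. The tight junction protein CLDN6 was 0, 7.78 and 8.98 in TE and 10.9, 11.13, 10.21, 9.97 and 9.82 in LB HYPO, and its call was marginal (adjusted p = 0.0499, held in 9 of 29 alternative settings). Occludin (OCLN) was not called (-1.3 ± 0.78, adjusted p = 0.381). The endothelial adhesion molecule PECAM1 was higher in LB HYPO (-10.07 ± 1.18, adjusted p = 1.55e-05), at 0, 0 and 1.23 against 7.11, 8.42, 7.97, 7.76 and 7.5, and was the 1 call among 7 blood and maternal cell markers, whose summed CPM was 0 to 39 in TE and 180 to 394 in LB HYPO. Among 23 cytoskeletal and motility genes, 2 were called higher in TE and 4 in LB HYPO. The tropomyosin TPM1 was higher in TE (3.13 ± 0.58, adjusted p = 0.00355) and TMSB10 and ANXA2 in LB HYPO (-1.7 ± 0.26 and -1.62 ± 0.31, adjusted p = 0.000632 and 0.00507), while ACTB had a log2 fold change of -0.096 ± 0.22 (adjusted p = 0.985).

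Apolipoproteins and lipid export genes were called higher in LB HYPO for 7 of 10 tested and in TE for none, against 2.17% of all genes called higher in LB HYPO. MTTP, which loads lipid on apolipoprotein B, had 0, 0 and 0.079 in TE and 8.45, 8.29, 7.08, 8.26 and 7.69 in LB HYPO, a ratio of 17584-fold (95% counting interval 3156 to 694583). APOC3 stood at 0, 0 and 0.86 and 8.36, 9.75, 7.74, 9.77 and 7.73 (-11.96 ± 1.03, adjusted p = 1.82e-07). APOA2 was present in all TE embryos, at 2.24, 5.96 and 6.78, and at 9.36, 9.53, 8.57, 9.5 and 7.62 in LB HYPO, without overlap (-3.13 ± 0.55, adjusted p = 0.00253). APOM had no count in TE, with LB HYPO at least 1694-fold above it (adjusted p = 0.00317). APOE, APOA1 and SOAT2 were the other calls. Summed CPM of the 10 genes was 31 to 554 in TE and 1064 to 2802 in LB HYPO, and the median log2 fold change was -7.36, or -6.47 with genes absent from TE at their bound. None of the 16 liver-like secreted proteins tested was called by edgeR or DESeq2, and 5 had an unadjusted p under 0.05. The 11 SERPIN genes, also collected afterwards, held 1 call, SERPINB2, higher in LB HYPO.

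**Figure D3:**
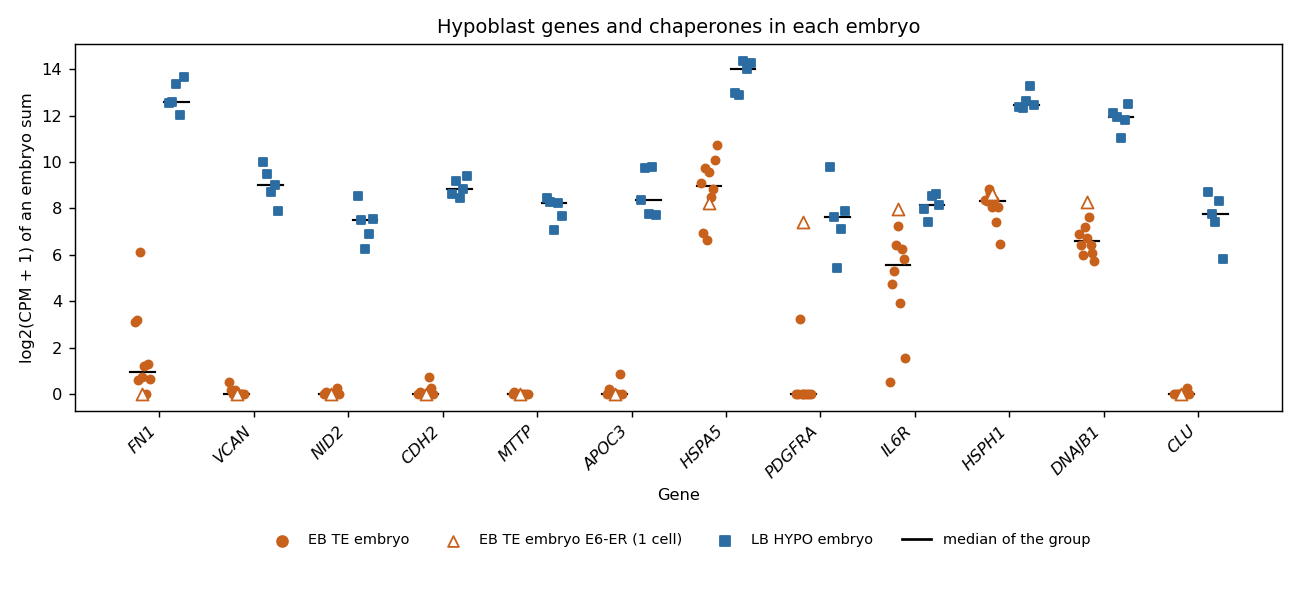
Level of 12 genes, as log2(CPM + 1) of each embryo sum, drawn as in the plot of TE genes. For FN1, VCAN, CDH2, MTTP and HSPH1 all 5 LB HYPO embryos sit above all 10 TE embryos; PDGFRA and IL6R overlap through TE embryo E6-ER alone.

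Some of the chaperones were higher in LB HYPO. Of 78 chaperone and co-chaperone genes, a family collected by symbol after the values had been seen, 22 were called higher in LB HYPO and 1 (UNC45B, named after its values were seen) in TE, with 55 not called, against 2.17% and 0.659% of all genes. Their median log2 fold change was -1.41, 16 lay above 0 and 59 below, and the summed CPM was 24478 to 35511 in TE and 90800 to 108581 in LB HYPO. HSPH1, a nucleotide exchange factor for HSP70, stood at 6.48, 8.34 and 8.85 and 12.4, 12.32, 12.63, 13.3 and 12.46 (-4.42 ± 0.29, adjusted p = 5.57e-09). DNAJB1, its HSP40 partner, had 5.75, 6.58 and 8.29 and 12.1, 11.96, 11.03, 11.83 and 12.51 (-5.02 ± 0.38, adjusted p = 2.52e-08). The endoplasmic reticulum chaperone HSPA5 had 6.66, 8.98 and 10.73 and 12.97, 12.88, 14.38, 14.02 and 14.3 (-4.55 ± 0.48, adjusted p = 3.94e-06). These 3 did not overlap between the groups, while HSP90AA1 did (-1.97 ± 0.40, adjusted p = 0.00797). Clusterin (CLU), an extracellular chaperone that also restrains complement, had a ratio of 15364-fold (95% counting interval 2757 to 606894), higher in LB HYPO. CLU passed 1 TPM in 29 of 36 LB HYPO cells, 25 of 25 LB epiblast cells and 0 of 24 ICM cells. On the list of stress, immediate early and complement control genes 5 of 12 were called higher in LB HYPO and none in TE, while FOS, EGR1 and ATF3 were not called (adjusted p = 0.819, 0.828 and 0.236). The LB embryos alone had been treated with antibody and complement, and the part of that treatment in these values was not tested.

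Some signalling genes were called, against 0.659% of all genes called higher in TE and 2.17% higher in LB HYPO. RSPO3, a secreted WNT enhancer, had a ratio of 5654-fold (95% counting interval 1565 to 46693) in favour of LB HYPO and was the 1 call among 28 WNT genes. The receptor tyrosine kinases KIT (-5.73 ± 1.31, adjusted p = 0.0207), FGFR4 (-6.04 ± 1.47, adjusted p = 0.0307) and FGFR1 (adjusted p = 0.0307) were called higher in LB HYPO among 21 FGF, EGF and PDGF genes. FGFR1 had a ratio of 472-fold (95% counting interval 84.3 to 18693) and was called in 14 of 28 alternative settings. SMAD3 and TGFB1 were the calls among 25 TGF-beta and BMP genes (adjusted p = 0.0129 and 0.0218), and SMAD3 lay at 0, 1.85, 7.26, 2.48 and 5 in LB HYPO. The retinoic acid hydroxylase CYP26A1 was higher in LB HYPO (-6.31 ± 1.43, adjusted p = 0.0195), the 1 call among 15 retinoid genes. KLF17, a factor of naive pluripotency, was higher in TE, with 0, 4.9 and 7.4 and 0, 0, 0, 0.057 and 0 and a ratio of 2614-fold (95% counting interval 469 to 103281), and was the 1 call among 9 naive pluripotency and ICM markers, whose summed CPM was 262 to 1156 in TE and 118 to 894 in LB HYPO. Of 12 epiblast markers SALL2 alone was called, higher in LB HYPO, and their summed CPM was 10 to 274 in TE and 81 to 304 in LB HYPO. The Hippo list of 16 genes held 1 call, ANKRD1, higher in LB HYPO, and 0 calls without E6-ER. ANKRD1 passed 1 TPM in 0 of 28 TE cells and 5 of 36 LB HYPO cells. EdgeR called no gene among 18 glycolysis genes, 12 cell cycle genes and 17 DNA methylation and Polycomb genes. Of these 3, 2 and 5 had an unadjusted p under 0.05, and DESeq2 called 0, 0 and 1. PKM came closest among the named ones (-1.46 ± 0.43, adjusted p = 0.0628). Summed CPM of the 18 glycolysis genes did not overlap, at 1795.1 to 3738.9 in TE and 3791.6 to 4838.5 in LB HYPO.

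C4BPA and ARRDC3, 2 further genes among those with the largest fitted size, had no count in TE. LB HYPO exceeded TE at least 2035-fold for the complement regulator C4BPA, at 0, 4.97, 6.12, 6.94 and 9.07, and at least 1274-fold for ARRDC3, at 8.5, 5.47, 5.23, 5.77 and 7.22.

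**Figure D4:**
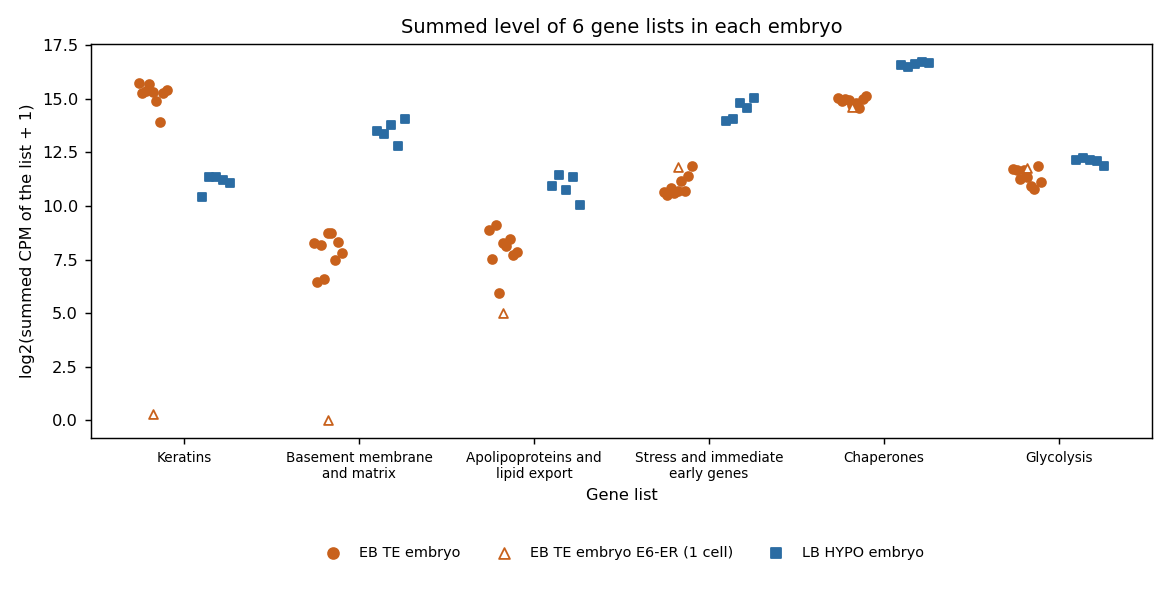
Summed CPM of 6 gene lists, as log2(summed CPM + 1), in each TE embryo (orange; the open triangle is E6-ER) and LB HYPO embryo (blue). Matrix, apolipoprotein, stress, chaperone and glycolysis sums lie higher in all 5 LB HYPO embryos than in any TE embryo, glycolysis by the least. Keratin sums lie higher in 9 of 10 TE embryos.

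The inner lineages of the same stages gave a second contrast. The difference between TE and LB HYPO was set against that between ICM and LB epiblast (EPI), which spans the same stages and the same ways of isolation, in a fit over 26 sums of 4 groups, where TE shared embryos with ICM and LB HYPO with LB EPI. The differences were unequal for 83 genes (0.564% of those tested), 36 (0.245%) with a more positive value for TE minus LB HYPO and 47 (0.319%) with a more negative one, and 44 of them were among the 416. With the embryo as a replicate block the count was 57, of which 27 were among the 83. It was 181 without TE embryo E6-ER, 46 and 43 without LB EPI embryos AP and AQ, and 53 without LB HYPO embryo AM. Of the 97 genes called higher in TE, 27 were also called higher in ICM than in LB EPI. Of the 319 called higher in LB HYPO, 51 were also called higher in LB EPI than in ICM. HSPH1 was -4.7 for ICM minus LB EPI (adjusted p = 2.42e-09), and the test of its difference between the pairs gave 0.34 ± 0.48 (adjusted p = 1). DNAJB1 was -4.38 there (adjusted p = 3.57e-07) and differed by -0.61 ± 0.57 (adjusted p = 0.88). Over all genes, 1.66% were called higher in LB EPI than in ICM and 0.74% higher in ICM. Of the 78 chaperones 14 were called higher in LB EPI and none higher in ICM. For none was the difference between the pairs called by edgeR. In that test 9 of the 78 had an unadjusted p under 0.05 and DESeq2 called 5, and a difference that missed the threshold is not shown to be absent.

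By list, the differences were unequal for 3 of 22 matrix genes (FN1, VCAN and NID1), 2 of 4 keratins (KRT8 and KRT18) and 2 of 17 adherens, desmosome and gap junction genes (CDH2 and GJB1). Of 18 tight junction genes edgeR and DESeq2 called 0, and 1 had an unadjusted p under 0.05. VCAN had -15.21 ± 1.46 (adjusted p = 3.07e-07) and FN1 -12.5 ± 1.99 (adjusted p = 0.00172), and PECAM1 and GJB1 passed the same test (adjusted p = 0.00172 for both). FN1 levels scaled over all 7 lineages were 7.4 to 11.07 in ICM and 5.36 to 7.71 in LB EPI. KRT18 gave the smallest p of the positive differences at 10.9 ± 1.3 (adjusted p = 3.19e-05), with KRT8 at 7.03 ± 1.24 (adjusted p = 0.00346). KRT8 was -3.19 for ICM minus LB EPI (adjusted p = 0.0355), at 6.68 to 8.7 in ICM and 10.59 to 11.45 in LB EPI. TPM1 and PGM2 had 4.31 ± 0.74 and 3.55 ± 0.61 (adjusted p = 0.00259 for both). IL6R, which did not differ between TE and LB HYPO at the threshold, was 7.66 higher in ICM than in LB EPI on the log2 scale (adjusted p = 0.00163), and the difference between the pairs was -9.72 ± 1.59 (adjusted p = 0.00172). Its level was 9.18 to 11.45 in ICM and 0 to 3.94 in LB EPI. HELLS and PARP1, which act in chromatin remodelling and DNA repair, were called (4.15 ± 0.75 and 3.61 ± 0.67, adjusted p = 0.00408 and 0.00528) and were not with the embryo block (adjusted p = 0.0627 and 0.287). SFXN1, a mitochondrial serine carrier, and PRR13 were also among the 47 negative differences (-4.24 ± 0.53 and -3.37 ± 0.54).

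**Figure D5:**
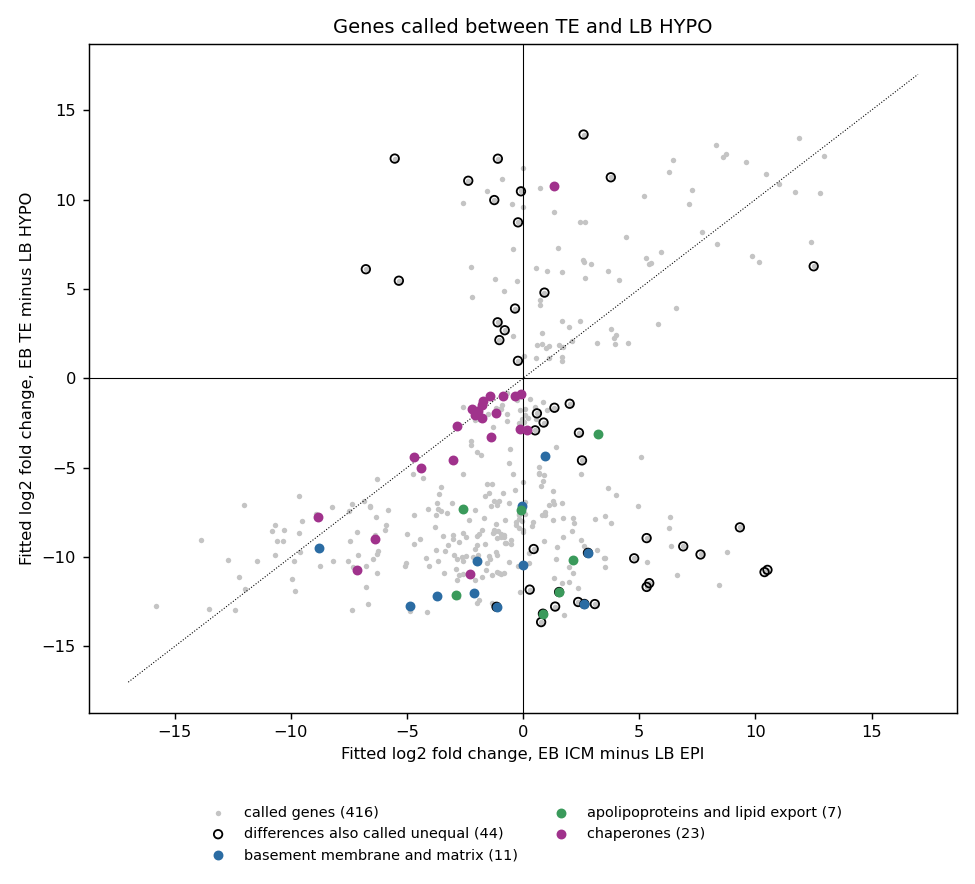
Fitted log2 fold change of EB TE minus LB HYPO against that of EB ICM minus LB EPI for the 416 genes called between TE and LB HYPO; the dotted line marks equal values and rings mark the 44 genes whose differences were called unequal. The 22 chaperones called higher in LB HYPO lie in the lower left or near the vertical axis, with none ringed.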

How the data were processed

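Smart-seq2 libraries of 64 of 220 single cells were used. The authors trimmed reads, aligned them with HISAT2 2.1.0 to the pig genome build 10.2, counted uniquely mapped reads per Ensembl gene with HTSeq, and deposited raw counts and TPM per gene and cell for the cells that passed their filters. Counts were used for all tests, and the deposited TPM values for the gene filter (over 1 in at least 3 of the 220 cells) and for shares of cells. The tables hold 22840 entries, of which 11444 had a symbol in the gene name table, and symbols cover 75.3% of counts. Coordinates and sequences were not used here.

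The embryo was read from the letters of the cell identifier. Counts were summed per embryo and group and tested with edgeR 4.0.16 (TMM, glmQLFit, glmQLFTest) under R 4.3.3, with alternatives in DESeq2 1.42.0 and limma 3.58.1. The standard error is the size of the log2 fold change over the square root of F. The authors compared single cells with SCDE, which was not used here. Where a group had no count, the fold is a bound against 3 counts over the group, and with 1 to 3 counts a ratio with its exact 95% counting interval is given. Reads carry no molecular identifiers, so intervals cover counting error only, and no doublet caller was run. For 10 embryos that gave 2 of the groups, deviations from group means correlated at -0.034 to 0.081 between lineages (median 0.040), and since they come from 1 embryo the block was fitted. No 2 cells had identical counts.

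The members and the 29 gene lists (684 genes, 429 tested) were chosen with earlier results of these data known. Named genes were the markers, in each direction the 8 called genes of smallest p and the 6 of largest size, per list up to 4 called and 3 uncalled genes, and the 6 of smallest p in each direction for the contrast with the inner lineages. Alternatives were followed for 76 genes, and some genes within the rule are not reported here. Chaperones, vacuolar pump subunits, solute carriers, SERPIN genes, and laminins and collagens were collected by symbol afterwards. The test was checked on simulated counts, where it missed most of the changes put in for both contrasts. A gene that was not called may therefore still differ.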

Additional observations from a re-analysis of the deposited data

Results flagged for a closer look

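Of 152 sets of embryo levels, 1 for each of the 76 named genes in each group, 44 were flagged. In these the gap of an embryo to its nearest neighbour was large for the range of its group. The cut-off gives about 1 in 20 by chance only for normally distributed levels. A gene at 0 in all embryos of a group but 1 passes it whatever that level, so the rate does not apply to such genes. The single cell of TE embryo E6-ER was the lowest in 17 of the 44 and the highest in 2. Its low levels, as log2(CPM + 1) with the next embryo in brackets, were GATA2 0 (next 6.567), GATA3 0 (next 7.327), KRT8 0 (next 13.54), KRT18 0.293 (next 11.85), DAB2 0 (next 10.24), TPM1 5.26 (next 8.685), PTGS2 0 (next 9.097), PGM2 8.51 (next 11.05), ABCG2A 0 (next 5.712), LIPH 0 (next 5.213), MEP1B 0 (next 3.639), ATP6V0D2 0 (next 8.839), NPC2 2.27 (next 8.181), SLC15A1 0 (next 6.298), CLDN6 0 (next 5.726), ANXA2 8.26 (next 9.957) and OCLN 0 (next 6.358). Other TE embryos or E6-ER stood apart at SLC30A2 3.31 in AG (next 5.823), FN1 6.14 in AD (next 3.205), APOA2 2.24 in AD (next 5.002), TGFB1 0.293 in E6-ER (next 0.154) and PDGFRA 7.41 in E6-ER (next 3.223).

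For genes low or absent in most TE embryos, 1 embryo stood highest, at levels of NID1 0.079, NID2 0.268, FBLN1 0.231, VCAN 0.512, HABP2 0.268, CDH2 0.711, PECAM1 1.23, MTTP 0.079, APOC3 0.86, FOXA2 0.079, CLU 0.268, FGFR1 0.231, RSPO3 0.154, SMAD3 0.826 and ACSL3 5.44. In LB HYPO the highest embryo stood apart for SLC30A2 (0.0596 in AM), ACSL6 (4.16 in AO) and KLF17 (0.0567 in AO), and the lowest for KRT8 (10.3 in AL), APOM (1.12 in AP), FGFR4 (5.04 in AP) and SLC3A1 (7.95 in AL). Embryo AL was 1 cell and AP was 2.

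The difference between TE and LB HYPO differed from that between ICM and LB EPI for 83 genes in the test of the difference itself. On the log2 scale the values were KRT8 7.03, KRT18 10.9, FN1 -12.5, PGM2 3.55, VCAN -15.21, GJB1 -16.86, TPM1 4.31, PECAM1 -14.77, HELLS 4.15, PARP1 3.61, SFXN1 -4.24, PRR13 -3.37 and IL6R -9.72. Those of GJB1, PECAM1 and VCAN rest on few counts in TE and depend on the prior count of the fit.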

How the results depend on the processing

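The 416 calls became 836 with DESeq2, 1256 with all 7 lineages in the fit, 662 with a filter on the TE and LB HYPO cells alone, 230 with filterByExpr, 153 with sums of at least 3 cells, 238 and 77 with the first and last 4 pools, and 1142 with edgeR's newer dispersion (legacy=FALSE), which was added after seeing the data. Of the 416, 376 were also called by DESeq2, 375 with legacy=FALSE and 252 by limma on TPM. DESeq2 split its calls 439 higher in TE to 397, against 97 to 319. Leaving out 1 embryo gave 193 to 472 calls. The 83 unequal differences became 740, 246, 138, 144 and 553 with DESeq2, all 7 lineages, filterByExpr, sums of at least 2 cells and legacy=FALSE, 43 to 181 with 1 embryo left out, and 57 with the embryo as a replicate block, which ended the calls of HELLS and PARP1 among 13 genes named for it. In TE against LB HYPO no paired analysis was possible because no embryo gave both groups. Of listed genes, 63 were called, 36 with sums of at least 3 cells, 26 with the last 4 pools, 108 with legacy=FALSE and 42 to 72 with 1 embryo left out. Cells with GATA4 over 10 TPM were 3.57% of TE and 30.6% of LB HYPO, against 21.4% and 55.6% over 1 TPM.

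Of 76 named genes 71 kept 1 direction in every alternative, and the other 5 were not called. TEAD1 turned to -0.0191 and ANXA6 to 0.20 with sums of at least 3 cells, and to -1.07 and 0.82 with the last 4 pools. ACTB turned to 0.075 without TMM, 0.12 with DESeq2 and 0.019 with limma, and ranged from -0.20 to 0.022 with 1 embryo left out. FOS and EGR1 turned to 1.73 and 0.97 with the last 4 pools and ranged from -1.66 to 0.24 and from -2.61 to 0.72. The median fold change of all genes moved by 0.14 without TMM and 0.20 with DESeq2 (log2). Of 59 named calls, 42 held with each embryo left out in turn, 32 were lost with the last 4 pools and 13 without embryo AO. The causes were not tested. At this depth, 5 embryos and up to 16 cells an embryo, a gene that missed the threshold is not shown to be equal.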
